A study of Homo sapiens with 12 samples.

Results

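LINC01235, a long intergenic non-coding RNA, and the 4 genes of the nuclear factor I (NFI) family, NFIA, NFIB, NFIC and NFIX, were followed in Daoy cells, an established human medulloblastoma (MB) line, on 12 expression arrays. LINC01235 and NFIB are neighbours on chromosome 9. The members were found as the probes whose RefSeq accession belongs to these symbols, which gave 10 of the 34127 probes and 5 of the 27708 genes on the array. LINC01235 had 1 probe (A_33_P3266739), NFIA 2, NFIB 4, NFIC 2 and NFIX 1, and each was spotted once per array. LINC01235 was chosen by its measured levels on these arrays, high in P3 ACM against DMEM, so they are given as a description without a test. The NFI genes were taken as its neighbour and the rest of that family.

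NFI proteins are transcription factors that bind DNA as dimers, at a palindrome built from the core TTGGC and its reverse complement GCCAA, and a single core can also be bound. In the developing brain they act in the switch of progenitors to glial fates, where they are known for the control of astrocyte genes such as GFAP, and in cerebellar granule neurons, the lineage to which many MBs are related, they act in late maturation steps. Long intergenic non-coding RNAs are transcripts without a known protein product, and some of them act on genes near their own locus.

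RNA came from Daoy cells cultured in medium collected from neonatal rat astrocytes (astrocyte conditioned medium, ACM) or in control DMEM with serum, with 1 round of culture before harvest (P1) or 3 rounds (P3), each lasting 48 h. Each of the 4 groups, P1 ACM, P1 DMEM, P3 ACM and P3 DMEM, held 3 samples. All are from this 1 cell line, both media contained serum, and whole cultures were extracted, so that more cells with a transcript and more transcript per cell cannot be told apart. The comparisons ask how ACM changes expression in MB cells after a short and a longer culture. Values are levels: log2 of the background-corrected intensity of a probe, set relative to the 75th percentile on the same array. A level compares arrays for 1 probe and does not compare probes. "Well above background" is the call of the scanner software for a spot.

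The arrays were taken to lie on 3 slides of 4, since the file headers give shared scan times and array positions; the labels name no slide. All 3 P1 ACM arrays were on slide 1, where P3 ACM replicate 1 was the fourth. The remaining P3 ACM arrays shared slide 2 with the first 2 replicates of P1 DMEM. The last P1 DMEM replicate was on slide 3, beside all 3 P3 DMEM arrays. ACM and DMEM samples of the same passage shared no slide, so that slide and medium are partly confounded. The median intensity ran from 265.2 to 606.2, and 74.2% to 94.6% of probes were well above background. The labels of the arrays and of a second, normalized table from the study conflict: each of its 12 columns ranked as the array of another sample, 10 of them as an array of another group. The labels of the arrays are used here, and values under the labels of the table are given where they matter. Of 12 markers of MB and neural progenitors, 8 (among them SOX2, OTX2, GLI2 and NES) were well above background on every array and none (0) was below on all. ZIC1 and PTCH1 were so on 11 arrays, PROM1 on 5 and ATOH1 on 2. PROM1 was well above background on 0 of 3 P3 ACM arrays and 3 of 3 P3 DMEM arrays, and on 1 of 3 in each P1 group. The same P3 pattern was found for 123 (0.36%) of the 34127 probes. PROM1 had a mean of -6.97 in P3 ACM and -5.79 in P3 DMEM. The lowest level well above background was -5.64 and -6.00 on P3 ACM replicates 2 and 3. It was -7.58 to -6.98 on the P3 DMEM arrays, so the count also depends on the slide. Of 8 astrocyte markers, 5 were well above background on all 12 arrays, and their summed level was 2.06 to 2.55 in P1 ACM, 1.83 to 2.60 in P3 ACM, 2.40 to 2.63 in P1 DMEM and 2.07 to 2.39 in P3 DMEM. GJA1, the brightest (mean 1.81 in P1 ACM and 1.92 in P1 DMEM), weighs most in the sum. The sum therefore does not show the dimmer markers ALDH1L1, S100B and AQP4, which are given below.

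To show what lies at the start of the genes, the first promoter listed by RefSeq is given for NFIA and NFIC, the members with the clearest values by medium, and for NFIB, the neighbour of LINC01235. Each is 300 bases, from 250 before to 50 after the annotated start, on GRCh38.p14, written 5′ to 3′ on the strand of the gene, with the NFI core (TTGGC, or GCCAA for the opposite strand) in capitals. They are at chr1:61076977-61077276 (plus strand, NFIA), chr9:14322338-14322637 (minus strand, NFIB) and chr19:3359380-3359679 (plus strand, NFIC).
NFIA: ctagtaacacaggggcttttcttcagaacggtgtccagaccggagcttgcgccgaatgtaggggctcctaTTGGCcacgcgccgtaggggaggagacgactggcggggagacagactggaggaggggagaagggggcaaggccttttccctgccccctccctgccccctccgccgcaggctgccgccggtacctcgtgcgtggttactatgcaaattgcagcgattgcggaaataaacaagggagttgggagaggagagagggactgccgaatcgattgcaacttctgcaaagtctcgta
NFIB: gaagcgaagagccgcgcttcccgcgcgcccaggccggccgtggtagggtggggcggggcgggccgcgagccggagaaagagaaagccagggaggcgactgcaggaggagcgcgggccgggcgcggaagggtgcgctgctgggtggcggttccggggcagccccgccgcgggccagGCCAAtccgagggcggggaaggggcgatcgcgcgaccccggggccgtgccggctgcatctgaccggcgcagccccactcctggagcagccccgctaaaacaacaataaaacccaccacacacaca
NFIC: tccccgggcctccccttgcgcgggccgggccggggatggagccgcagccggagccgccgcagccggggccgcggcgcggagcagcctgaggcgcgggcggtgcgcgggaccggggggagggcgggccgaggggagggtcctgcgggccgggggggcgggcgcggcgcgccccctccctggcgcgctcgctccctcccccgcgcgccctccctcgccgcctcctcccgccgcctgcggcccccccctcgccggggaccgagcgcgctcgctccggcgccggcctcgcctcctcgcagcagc
The NFIA window holds 1 core, the NFIB window holds 1 on the opposite strand and the NFIC window none (0). Over all listed promoters of the family, the core was found in 1 of 3 for NFIA, 6 of 10 for NFIB, 0 of 1 for NFIC and 2 of 5 for NFIX. The 2 NFIX windows (chr19:13024329-13024628 and chr19:13024331-13024630) overlap and hold the same core. The core was found in 45.6% of all 35116 RefSeq promoters of this length. The whole palindrome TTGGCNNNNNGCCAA, searched on both strands, was in none (0) of the promoters of the NFI genes and in 0.0285% of all.

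LINC01235 gave a signal well above background on 4 of the 12 arrays, all of them ACM arrays: the 3 of P3 ACM and P1 ACM replicate 3. In P3 ACM its level was -5.24, -3.29 and -3.05 (mean -3.86 ± 1.20 SD, n = 3). In P1 ACM it was -7.78, -7.29 and -5.27 (mean -6.78 ± 1.33 SD, n = 3). In P1 DMEM it was -7.79, -8.36 and -8.65 (mean -8.27 ± 0.44 SD, n = 3) and in P3 DMEM -9.53, -8.22 and -9.20 (mean -8.98 ± 0.68 SD, n = 3). P3 ACM was the group measured on all of its arrays, and its lowest array (-5.24) lay beside the highest P1 ACM array (-5.27). The other groups have no order, since P1 ACM was measured on 1 array and DMEM on 0 of 6. A probe of GABRA6, not measured in DMEM either, was at -7.76 and -8.29 in the DMEM samples of slide 2 and at -9.80 to -9.20 in those of slide 3.

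**Figure D1:**
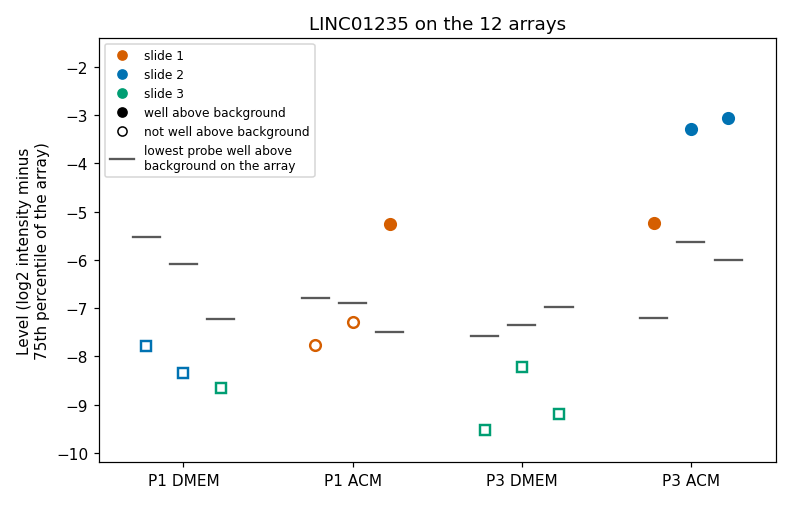
Level of LINC01235 (vertical axis, log2 relative to the 75th percentile) on each of the 12 arrays, by group. Circles are ACM and squares DMEM, colour is the slide, filled points are well above background, and grey bars mark the lowest probe well above background on each array. The 4 filled points, from -5.27 to -3.05, are ACM arrays of slides 1 and 2, and the DMEM points lie below the grey bars.

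The difference was visible before any scaling. The median pixel intensity of the spot was 286 and 291 in P3 ACM replicates 2 and 3, 128 in P3 ACM replicate 1 and 113.5 in P1 ACM replicate 3, against 41 to 73 on the other 8 arrays, with a local background of 19.5 to 27 on all 12. After background correction the intensities were 69.5, 216.5 and 239.8 in P3 ACM, and 2.63, 6.0 and 2.99 in P3 DMEM. Since no P3 DMEM array measured the probe, the ratio is given as a lower bound under a set floor. By that floor LINC01235 was at least 10.9-fold higher in P3 ACM than in P3 DMEM. For the bound, the DMEM mean was set at -7.30, the mean over arrays of the lowest level of any probe well above background, in place of the measured -8.98. A spot without the call can lie above that lowest level, so the bound depends on the floor chosen. After quantile normalization it was 9.12-fold. Leaving out 1 P3 array at a time gave bounds from 8.23-fold (without P3 ACM replicate 3) to 17.5-fold (without P3 ACM replicate 1). At P1 only 1 of 3 ACM arrays and 0 of 3 DMEM arrays measured the probe, and no fold is given.

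By slide, the signal was on slides 1 and 2. On slide 2, P3 ACM replicates 2 and 3 (-3.29 and -3.05) had the 2 highest levels of the study. P1 DMEM replicates 1 and 2 beside them (-7.79 and -8.36) were not well above background. By a floor set in the same way, the ratio was at least 6.24-fold, between groups that differ in medium and in passage. On slide 1, P3 ACM replicate 1 (-5.24) and P1 ACM replicate 3 (-5.27) were almost equal, and P1 ACM replicates 1 and 2 (-7.78 and -7.29) were not well above background. On slide 3, which holds DMEM samples alone, no array (0 of 4) measured it. Slide 1 had 90.9% to 94.6% of all probes well above background, and slide 2 had 74.2% to 80.2%. Within a passage, slide and medium cannot be told apart.

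Among all 34127 probes, LINC01235 was the only 1 (0.00293%) well above background on the 3 P3 ACM arrays and on 0 of the 3 P3 DMEM arrays, and 123 (0.36%) had the opposite pattern. Both counts depend on the share of probes well above background on each array. It was 92.5%, 75.2% and 78.9% in P3 ACM and 91.0%, 90.7% and 88.1% in P3 DMEM. No other probe was well above background on the 4 arrays with LINC01235 signal alone. The 3 P3 ACM arrays lay above the other 9 for 34 of the 25275 genes kept (0.135%), LINC01235 among them. LINC01235 passed the filter on dim probes through P3 ACM alone, the group in which it was picked as high. These shares describe the gene through the pattern for which it was picked. Its probe belongs to the dimmest tertile by mean level, in which the median difference between ACM and DMEM was 0.84 at P1 and 0.04 at P3, against 0.15 and 0.00 over all genes. The level of LINC01235 rests on the labels of the arrays. It was not among the 30569 probes of the normalized table, and by the labels of the table columns that match them, the 4 arrays with signal would be P3 DMEM replicate 1, P1 DMEM replicate 3, P3 ACM replicate 1 and P1 ACM replicate 3, 1 in each group.

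All 9 NFI probes were well above background on all 12 arrays, so that the 4 transcription factors were measured in every sample. In limma, no NFI gene passed the thresholds of the study, more than 2-fold with an unadjusted p of 0.05 or less, in any comparison. The count was 0 of 4 at P1, where 13.6% of all genes were called, 0 of 4 at P3 (1.73% of all genes), 0 of 4 for the difference between passages (6.88%), and 0 of 4 for P3 against P1 in DMEM (1.72%) and in ACM (7.52%). By unadjusted p of 0.05 or less alone, 1 NFI gene, NFIA, passed at P1 (24% of all genes) and 1, NFIC, at P3 (7.27%), and by the methods' t-test NFIA and NFIC passed at P1 (27.8% of all genes) and NFIC at P3 (4.41%). The P1 groups did not overlap for NFIA and NFIC, higher in ACM (30.7% of all genes), and NFIX, lower in ACM (5.39%). At P3 the groups did not overlap for NFIC, higher (4.75%), and for no (0) NFI gene lower (5.03%). The median difference of the 4 genes was 0.03 at P1 and 0.00 at P3, against 0.15 and 0.00 over all genes. After adjustment, 0 of the 25275 genes passed 0.05 at either passage in limma, and by the methods' t-test 8.39% of all genes passed at P1 and 0 at P3, with 0 of the 4 NFI genes among them.

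NFIA, the member best known for the onset of gliogenesis, was lowest in P1 DMEM. Its brightest probe was at 0.82, 0.36 and 0.66 in P1 ACM, and at 0.17, 0.05 and -0.03 in P1 DMEM. At P3 it was at 0.75, 0.47 and 0.74 in ACM, and at 0.56, 0.52 and 0.60 in DMEM. The 3 P1 DMEM arrays lay below the 9 others, as they did for 273 genes (1.08%), while P1 ACM, P3 ACM and P3 DMEM overlapped. The difference between ACM and DMEM was 0.55 ± 0.16 (SE, log2) at P1, 1.46-fold, with a 95% interval of 0.19 to 0.91 and adjusted p = 0.103 in limma, and 0.10 ± 0.16 at P3, with adjusted p = 0.886. The difference between these 2 effects was -0.45 ± 0.23, with adjusted p = 0.652, so a change of the ACM effect with passage was not shown. Between passages, P3 DMEM was above P1 DMEM by 0.49 ± 0.16 (adjusted p = 0.571). The same ordering held on the shared slides, where P3 ACM was above P1 DMEM by 0.50 on slide 2 and P3 DMEM above P1 DMEM by 0.59 on slide 3. With slide as a block the P1 difference between media was 0.36, and its unadjusted p was above 0.05. The second NFIA probe, made for another transcript accession, ran from -4.46 to -3.69 in P1 ACM and from -5.36 to -4.83 in P1 DMEM, a difference of 0.90 ± 0.35 (adjusted p = 0.158). For that probe P3 DMEM was not above P1 DMEM (-0.26 ± 0.35, adjusted p = 0.784), so the 2 probes differ on the passage comparison. Under the labels of the normalized table P1 ACM had the lowest NFIA mean (11.3 on its log2 scale, against 11.4 to 11.7), and the P1 difference turned to -0.11.

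**Figure D2:**
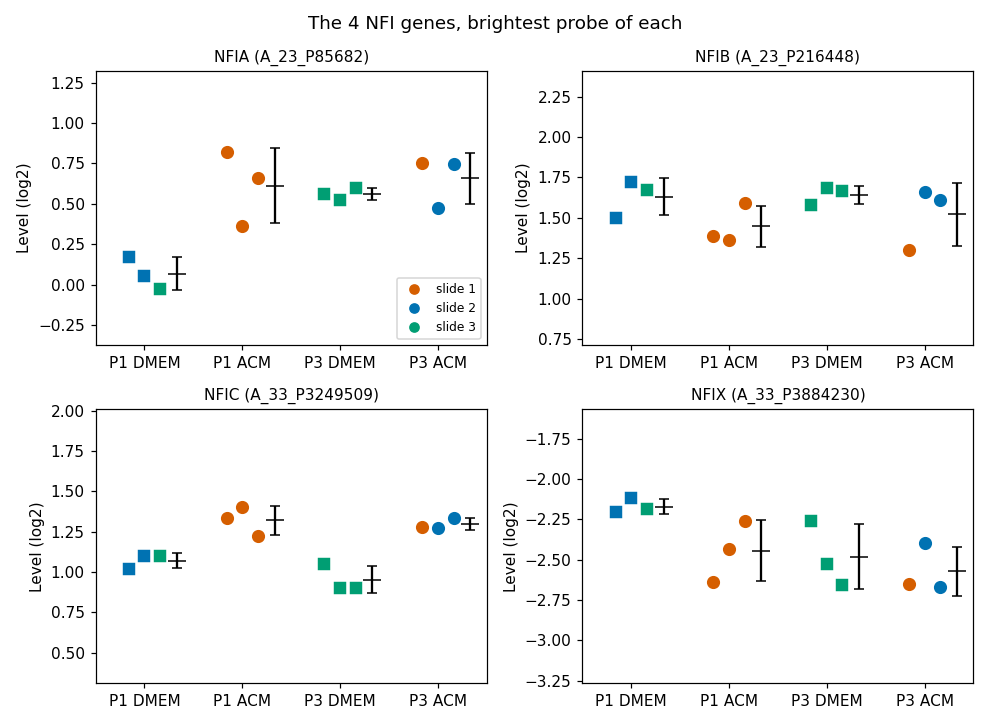
Levels of the brightest probe of NFIA, NFIB, NFIC and NFIX (vertical axes, log2, 1.7 log2 units on each) by group, with circles for ACM, squares for DMEM and colour for the slide. Bars to the right of the points are the mean ± SD of 3 samples. NFIA was lowest in P1 DMEM, NFIC was between 1.22 and 1.40 in all 6 ACM samples and between 0.90 and 1.1 in all 6 DMEM samples, and the groups of NFIB overlapped.

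NFIC, a member studied mainly in tooth root formation, was the NFI gene that separated the media at both passages. Its brightest probe was at 1.34, 1.40 and 1.22 in P1 ACM and 1.02, 1.1 and 1.1 in P1 DMEM. At P3 it was at 1.28, 1.27 and 1.34 in ACM and 1.05, 0.90 and 0.90 in DMEM. The 6 ACM samples lay above the 6 DMEM samples without overlap, as they did for 152 genes (0.601%), against 0.356% in the opposite direction and 0.957% in either. The differences were small, 0.25 ± 0.13 at P1 (1.19-fold, adjusted p = 0.305) and 0.35 ± 0.13 at P3 (1.27-fold, adjusted p = 0.684), and their mean was 0.30 ± 0.09 (adjusted p = 0.14). The effect differed between passages by 0.10 ± 0.19 (adjusted p = 0.96). On slide 2, P3 ACM was above P1 DMEM by 0.25, and with slide as a block the differences were 0.29 at P1 and 0.39 at P3, with unadjusted p above 0.05 at both. The second NFIC probe differed by 0.14 ± 0.11 over both passages (adjusted p = 0.483) with overlapping groups, and did not repeat the separation. Under the labels of the normalized table the direction turned: the difference was -0.029 at P1 and -0.38 at P3, -0.20 in the mean.

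NFIB is the protein-coding gene nearest to LINC01235 on one side, a regulator of glial differentiation and lung maturation. Its brightest probe was at 1.38, 1.36 and 1.59 in P1 ACM, 1.5, 1.72 and 1.67 in P1 DMEM, 1.30, 1.66 and 1.61 in P3 ACM, and 1.58, 1.68 and 1.67 in P3 DMEM. The groups overlapped at both passages, and the 3 lowest arrays were on slide 1. ACM differed from DMEM by -0.18 ± 0.15 at P1 (95% interval -0.52 to 0.16, adjusted p = 0.571) and by -0.12 ± 0.15 at P3 (-0.46 to 0.22, adjusted p = 0.848). The other 3 NFIB probes differed by -0.20, -0.06 and -0.16 at P1 and by -0.27, -0.02 and 0.21 at P3, and the lowest of their adjusted p was 0.619. The P3 ACM samples in which LINC01235 was bright therefore had NFIB levels (1.30, 1.66 and 1.61) within the range of the DMEM samples or below it.

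NFIX, which acts in neural stem cell quiescence and in muscle, was at -2.64, -2.43 and -2.26 in P1 ACM and at -2.21, -2.12 and -2.18 in P1 DMEM. At P3 it was at -2.65, -2.40 and -2.67 in ACM and -2.26, -2.53 and -2.65 in DMEM. The P1 groups did not overlap and the P3 groups did. The differences were -0.27 ± 0.17 (adjusted p = 0.384) and -0.09 ± 0.17 (adjusted p = 0.898).

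**Figure D3:**
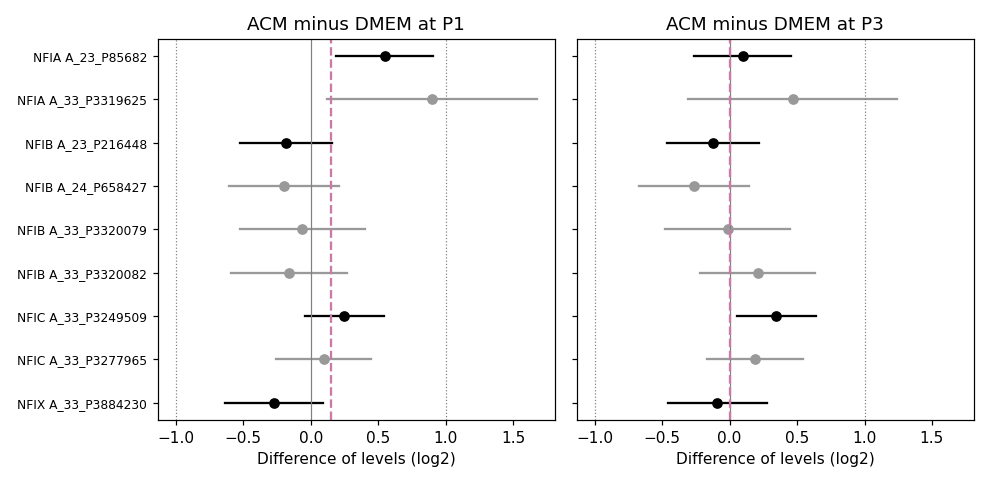
Difference of levels between ACM and DMEM (horizontal axes, log2) for the 9 NFI probes at P1 (left) and P3 (right), with 95% intervals from limma; black marks the brightest probe of each gene, the dashed line the median of all genes and the dotted lines a 2-fold change. The P1 interval of NFIA (0.19 to 0.91) and the P3 interval of NFIC (0.05 to 0.64) leave out 0, and those of NFIB and NFIX include it.

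The region around LINC01235 was followed through the genes between it and NFIB and the 10 on either side, in the order of the RefSeq table. Of these 27 genes, 7 had a probe and 5 passed the filter on dim probes. The 7 genes between LINC01235 and NFIB are long non-coding RNAs or pseudogenes, and only LINC00583 had a probe. MPDZ, a scaffold protein of tight junctions and the nearest protein-coding gene on the other side of LINC01235, was at 0.60 to 1.12 on all 12 arrays, with differences of 0.14 ± 0.16 at P1 (adjusted p = 0.71) and 0.18 ± 0.16 at P3 (adjusted p = 0.786). ZDHHC21, a palmitoyltransferase beyond NFIB, was at -2.42 to -1.85, with differences of -0.17 at P1 (adjusted p = 0.604) and 0.09 at P3 (adjusted p = 0.883). TYRP1, a melanosome enzyme, and LURAP1L differed by 0.38 and -0.33 at P1 and by -0.04 and -0.075 at P3, and the lowest of their adjusted p was 0.284. At P3 none (0 of 5) was called, against 1.73% of all genes, and none had an unadjusted p of 0.05 or less, against 7.27%. MPDZ and ZDHHC21 each had a second probe with a wider range, -0.68 to 0.75 for MPDZ and -3.82 to -2.22 for ZDHHC21. At P3 the second MPDZ probe was not higher in ACM (-0.13, -0.44 and -0.001) than in DMEM (-0.28, 0.75 and -0.10), and the groups overlapped. A second TYRP1 probe ran from -2.27 to -1.57.

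LINC00583 was the neighbour called at P1, 1 of 5 genes (higher calls were 13.5% of all genes). It was in the dimmest tertile of genes, in which the median difference at P1 was 0.84. It differed by 1.30 ± 0.31 (limma, adjusted p = 0.103). Its levels were -3.14, -2.98 and -2.72 in P1 ACM and -4.10, -4.21 and -4.43 in P1 DMEM. In P3 ACM, however, replicate 1 was at -2.82, with replicates 2 and 3 at -4.18 and -4.06, and P3 DMEM was at -4.33, -4.11 and -4.16. The 4 high arrays are the 4 of slide 1, and on slide 2 P3 ACM (-4.12) and P1 DMEM (-4.16) differed little. With slide as a block, and after quantile normalization, 0 of the 5 neighbours were called at P1. LINC00583 and LINC01235 were thus high on arrays that differ only in part, with P1 ACM replicate 3 and P3 ACM replicate 1 high for both.

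**Figure D4:**
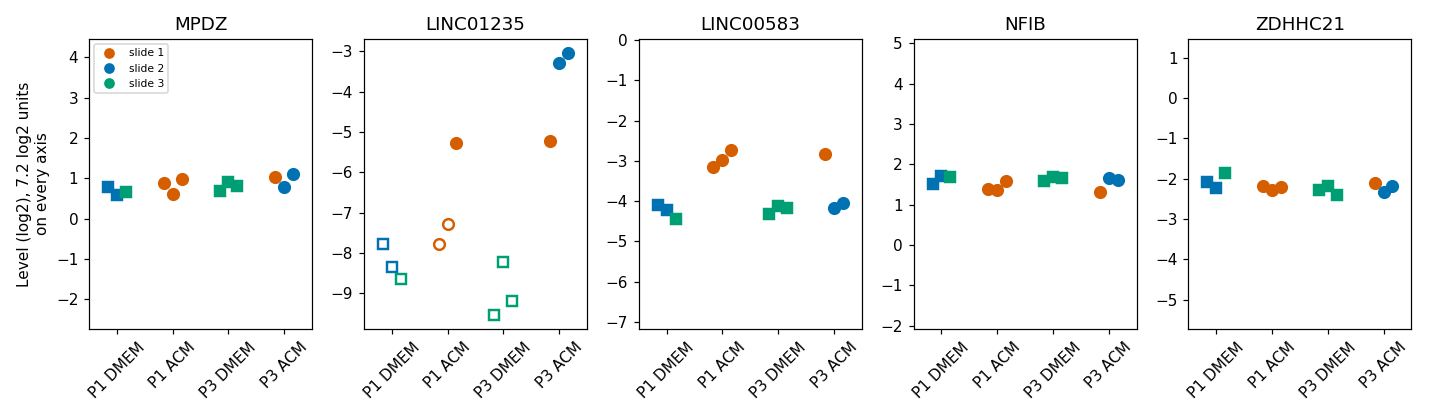
Levels (vertical axes, log2, the same length of axis in each panel) of LINC01235 and 4 genes around it in their order on chromosome 9, by group, with colour for the slide and open points for arrays not well above background. LINC01235 spans -9.53 to -3.05, LINC00583 is high on the 4 arrays of slide 1, and the brightest probes of MPDZ, NFIB and ZDHHC21, which are the ones drawn, span less than LINC01235.

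Other long intergenic non-coding RNAs were compared as a class. Of 277 kept on the array, 87 (31.4%) were called higher in ACM and 0 lower at P1, against 13.5% and 0.0989% of all genes, and their median difference was 0.59. At P3, 13 (4.69%) were called higher and 4 lower (0.91% and 0.819% of all genes), with a median of 0.11. The P1 count moved with the processing: it was 25 higher and 3 lower after quantile normalization, 2 higher and 0 lower when normexp preceded it, and with slide as a block 3 rose and 6 fell. Without P3 ACM replicate 1 the P3 count was 5 higher and 20 lower. Of the 277, 175 were in the dimmest tertile of genes. The part of signal level in the count was not tested.

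Genes described as targets or partners of NFI factors in neural cells were taken from a list of 17, of which 14 passed the filter. At P1, 3 of the 14 (21.4%) were called higher in ACM and 0 lower, against 13.5% and 0.0989% of all genes. At P3 0 were called in either direction (1.73% of all genes), with 3 at an unadjusted p of 0.05 or less (7.27%). Their median difference was 0.29 at P1 and -0.13 at P3, against 0.15 and 0.00 over all genes. The 3 called at P1 were ALDH1L1, a folate enzyme that marks astrocytes, CNTN2, a contactin of cerebellar granule neurons, and S100B, a calcium-binding protein of astrocytes. All 3 were in the dimmest tertile of genes, in which the median difference at P1 was 0.84. ALDH1L1 was at -2.60, -2.63 and -3.40 in P1 ACM and -4.93, -4.26 and -4.39 in P1 DMEM (difference 1.65 ± 0.42, adjusted p = 0.103). CNTN2 was at -2.71, -2.60 and -3.14 against -4.21, -4.65 and -4.02 (1.47 ± 0.43, adjusted p = 0.103). S100B was well above background on no (0 of 3) P1 DMEM array. By a floor set as for LINC01235, S100B was at least 2.21-fold higher in P1 ACM, a bound that was not tested. Its fitted difference, which uses the P1 DMEM values not well above background, was 2.18 ± 0.61 (limma, adjusted p = 0.103). All 3 were also high in P3 ACM replicate 1, the fourth array of slide 1, at -2.86, -2.72 and -4.56. In P3 ACM replicate 2, on slide 2, they were at -4.80, -4.48 and -7.71. Replicate 3, on the same slide, was higher than replicate 2 for ALDH1L1 and S100B and lower for CNTN2. The means of P3 ACM were -3.83, -3.97 and -6.14, against -4.35, -4.13 and -6.17 in P3 DMEM. The fitted P3 differences were thus small, at 0.52, 0.16 and 0.03, and none was called. For S100B, the spots of P3 ACM replicates 2 and 3 lacked the scanner call, which all 3 P3 DMEM spots had. The P1 DMEM means were -4.53, -4.29 and -7.32. With slide as a block 0 of the 14 were called higher and 1 lower at P1, and with normexp 0 in either direction, while quantile normalization kept the count at 3.

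AQP4, a water channel of astrocytes outside this list and singled out after its values were seen, was lower in ACM at both passages. Its level was -5.20, -5.26 and -3.99 in P1 ACM and -2.26, -3.59 and -4.49 in P1 DMEM, which overlap. It was -5.59, -5.48 and -4.85 in P3 ACM and -3.37, -2.46 and -4.29 in P3 DMEM, which do not. It passed the thresholds at P1 (-1.37 ± 0.60, adjusted p = 0.198) and at P3 (-1.94 ± 0.60, adjusted p = 0.644), and among the astrocyte markers it moved opposite to ALDH1L1 and S100B at P1.

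The remaining targets did not pass at P1 or P3. SLC1A3, a glutamate transporter of astrocytes, differed by 0.16 at P1 and -0.53 at P3 (adjusted p = 0.69), and CDH2, N-cadherin, by -0.31 and -0.46 (adjusted p = 0.69 at P3). EZH2, a histone methyltransferase that is repressed by NFI proteins, differed by -0.35 and -0.48 (adjusted p = 0.703 at P3). GFAP, the classical NFI target of astrocytes, stayed outside the test: 1 of its probes was well above background on 2 arrays (P1 ACM replicates 1 and 3) and the other on 7, 3 of them ACM. Between passages, SOX9, a partner of NFIA in gliogenesis, was lower in P3 than in P1 DMEM by -1.16 ± 0.45 (adjusted p = 0.571), the 1 call among 14, against 0.582% lower calls of all genes. In ACM, MMD2 and CNTN2 (-1.16 ± 0.43, adjusted p = 0.37) were called lower at P3, 2 of 14 against 7.48% of all genes. The lower values were those of the 2 P3 samples of slide 2, where CNTN2 was at -4.48 and -4.72 and MMD2 was not well above background. P3 ACM replicate 1, on slide 1 with P1 ACM, was at -2.72 for CNTN2 and -2.53 for MMD2, within or above the P1 ACM range (-3.14 to -2.60 and -3.90 to -2.64).

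The genes whose levels followed LINC01235 most closely over the 12 arrays, by Pearson r among 18385 genes, were ARHGEF39 (r = 0.89, rho = 0.80), LINC01502 (r = 0.86, rho = 0.76), B3GALT5-AS1 (r = 0.83, rho = 0.75), ZNF486, a zinc finger protein (r = 0.82, rho = 0.90), and RPL39L, a paralog of a ribosomal protein (r = 0.82, rho = 0.70). The arrays share slides, and on 8 of them LINC01235 was not measured above background, so these values are a description. Without the 2 arrays farthest from the median level, P3 ACM replicates 2 and 3, r was 0.79 for ARHGEF39, 0.54 for LINC01502, 0.54 for B3GALT5-AS1, 0.83 for ZNF486 and 0.66 for RPL39L. LINC01502 was at -4.02 and -3.56 in these 2 samples, and between -5.82 and -4.91 on the other 10 arrays. Of the NFI genes, NFIC ranked 143 (r = 0.64, rho = 0.73), NFIA 1274 (r = 0.40, rho = 0.40), NFIB 12406 (r = -0.13, rho = -0.38) and NFIX 16080 (r = -0.31, rho = -0.37). For NFIB, r was -0.55 without P3 ACM replicates 2 and 3, and 0.0056 without the 2 arrays farthest from the median level of NFIB. After quantile normalization r was 0.022 for NFIB and 0.49 for NFIC. It was then 0.87 for ARHGEF39, 0.68 for LINC01502, 0.76 for B3GALT5-AS1, 0.75 for ZNF486 and 0.65 for RPL39L.

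**Figure D5:**
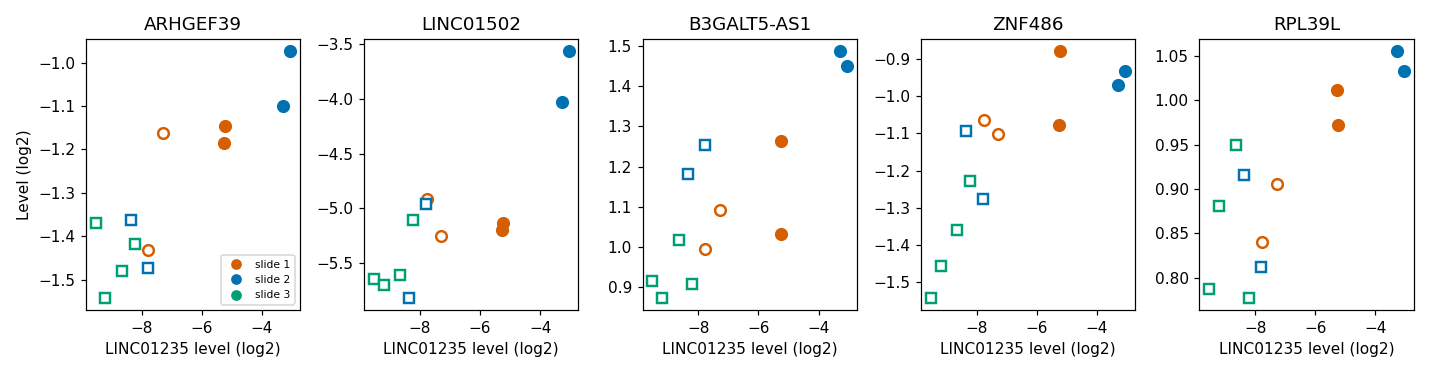
Level of the 5 genes most like LINC01235 (vertical axes, log2) against the level of LINC01235 (horizontal axes, log2) on the 12 arrays, with circles for ACM, squares for DMEM, colour for the slide, and filled points where LINC01235 was well above background. P3 ACM replicates 2 and 3, at the right of each panel, are apart from the other arrays for LINC01502 (-4.02 and -3.56).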

How the data were processed

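Gene expression of Daoy cells was measured on 12 single-colour Agilent arrays, 3 for each medium and passage, grouped by the labels for medium, passage and replicate. The authors deposited the scanner output of Agilent Feature Extraction 11.0.1.1, which gives a background-corrected intensity per spot without normalization between arrays. A second file that the authors deposited gives normalized log2 values for 30569 probes; it served only as an alternative, because its column labels conflict with the arrays. Precision is limited by signal over background and by 3 arrays per group.

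Here, levels were log2 intensities relative to the 75th percentile on each array, after removal of 1377 control spots per array and of outliers, and with repeated spots averaged. The 31078 probes detected (well above background) in all 3 arrays of 1 or more groups were kept. Symbols came from RefSeq accessions, which 25771 probes (75.5%) had, and each gene was represented in counts by its brightest probe on average. All 12 arrays entered 1 fit with 4 group means in limma 3.58.1 (R 4.3.3; lmFit, contrasts.fit, eBayes, two-sided), where p-values were adjusted by Benjamini-Hochberg over all probes of the fit, and intervals are 95% intervals of that fit. The p-values measure the spread between samples, which may be technical. Sequences are those of RefSeq for GRCh38.p14 and were used for 4 of the 5 members. LINC01235 is not tested, and the lower bounds for it are explained with its values.

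The members, the lists (neighbours, NFI targets and partners, other long intergenic non-coding RNAs, MB and astrocyte markers) and the tests were chosen with earlier results of these data known. The named genes are the 5 members with all their probes, the genes of these lists, and the 5 genes with the highest r to LINC01235 and to NFIB. At P1, samples with the same replicate number deviated together (r = 0.43, 0.19 and 0.27 over probes), and the numbers were taken to pair them; the main fit has no pairing, and the replicate block is an alternative. At P3 this was not so (0.23, -0.19 and 0.06). Tried as alternatives were quantile normalization alone or after normexp (offset 50, median intensity), the second file, looser and stricter filters on dim probes, fits on fewer arrays, trended and robust eBayes, the methods' t-test, a replicate or a slide block, other probes of a gene, and the loss of any 1 array. The mean over both passages and the bound under quantile normalization were added after seeing the data. Figures were drawn with matplotlib 3.10.9.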

Additional observations from a re-analysis of the deposited data

How the results depend on the processing

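The count of NFI genes past the thresholds was 0 under all 25 alternatives at P1, all 25 at P3 and all 23 for the difference between passages. The lower bound of LINC01235 at P3 (3.44 on the log2 scale) was 3.04 to 4.13 when 1 P3 array was left out and 3.19 after quantile normalization. LINC01235 was picked by its levels on these arrays, so these bounds describe those values and are not a test. The table of the authors does not hold the probe of LINC01235. With the replicate block, which pairs samples of the same number, no call changed: the difference of NFIA at P1 was 0.55, and that of NFIC at P3 was 0.35, whose unadjusted p then rose above 0.05. Signs turned only for differences that were not called. Under the labels of the table of the authors they were -0.11 and -0.12 for NFIA at P1 and P3, 0.054 and 0.10 for NFIB, -0.029 and -0.38 for NFIC (mean -0.20), and 0.20 and 0.23 for NFIX. With slide as a fixed block they were -0.094 for NFIA at P3, and 0.17 and 0.054 for NFIB at P1 and P3, and after quantile normalization as well -0.095, 0.17 and 0.16. Another NFIB probe gave 0.21 at P3, and when 1 P3 array was left out NFIX at P3 ran from -0.18 to 0.020, the highest without P3 DMEM replicate 1. The cause was not tested. With 3 arrays per group and 1 spot per probe, differences in dim probes such as LINC01235 at P1 were not measurable above background.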

Other observations

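FREM1, an extracellular matrix protein of basement membranes and the farthest neighbour beyond NFIB with a probe, was well above background on 4 arrays and passed no filter. Its level was -4.10 in P1 ACM replicate 2 and -5.39 in P3 ACM replicate 1, both on slide 1, against -9.0 to -6.94 on the other 10 arrays. It was singled out after its values were seen. CER1, a secreted BMP antagonist next to it, was well above background on 1 array.

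The genes most like NFIB over the 12 arrays were ZBED5 (r = 0.94, rho = 0.81), ZNF107 (r = 0.93, rho = 0.88), ACVR1, a BMP type I receptor (r = 0.93, rho = 0.82), ZNF300 (r = 0.92, rho = 0.80) and WDR90 (r = 0.92, rho = 0.85), among 18385 genes. Without the 2 arrays farthest from the median level of NFIB, r was 0.85 to 0.93 for these 5, and after quantile normalization it was 0.74 to 0.86. All 5 were lower in P3 ACM replicate 1 (ACVR1 -0.09, WDR90 0.53) than in P3 ACM replicates 2 and 3 (ACVR1 0.61 and 0.81, WDR90 1.36 and 1.27), which are on another slide. NFIB itself was at 1.30 against 1.66 and 1.61 there. Of the other NFI genes, NFIX followed NFIB less closely (r = 0.38), and NFIA (r = -0.41) and NFIC (r = -0.59) ran in the opposite direction.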
